A study of Mus musculus with 4 samples.

Results

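The genes described here are 10 genes of the segmentation clock and of the somites that it lays down: *Hes7*, *Lfng*, *Dll3*, *Mesp1*, *Mesp2*, *Ripply2*, *Nrarp*, *Tbx18*, *Meox1* and *Tcf15*. They were chosen by name, with earlier results of these data known. All 10 are among the 37074 gene names on the array, through 11 probes. RNA of whole C57BL/6 mouse embryos was measured on 4 one-colour Agilent arrays of 1 slide, on which the brightness of a short DNA probe after Cy3 labelling reports 1 transcript. There was 1 array for each of 4 groups, namely wild type (WT) at E8.5, *Dyrk2*-/- at E8.5, WT at E10.5 and *Dyrk2*-/- at E10.5, where E stands for the embryonic day. *Dyrk2* encodes a protein kinase, and its mutant alleles are small deletions made with the CRISPR/Cas9 nickase system. The number of embryos behind each RNA, their somite numbers and the mutant line used are not given in the sources used here. Genotype and the exact age of the embryos within a stage can therefore not be told apart. With 1 array per group, the genotypes were compared at each stage by fold alone, without a p-value.

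Somites are blocks of mesoderm that bud in pairs from the front of the presomitic mesoderm as the tail end of the embryo grows, and they later form vertebrae, ribs, skeletal muscle and dermis. In the presomitic mesoderm a clock of Notch, Wnt and FGF signaling turns its target genes on and off in cycles, with *Hes7* as a repressor at its core. As each cycle reaches the front, *Mesp2* sets the next border and the polarity of the coming somite, and the *Ripply* genes shut *Mesp2* off. RNA of a whole embryo averages over the phases of the clock and over all tissues, so that fewer cells of a type and less RNA per cell cannot be told apart.

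Values are log2 of the processed intensity minus the 75th percentile of the array, and they say how bright a probe was relative to its own array. A probe is called detected on an array where the scanner software marks it as well above background. The scanner software gives each spot an error, which for a difference between 2 arrays came to about 0.20 (log2) for bright members and covers the spot only, not the embryos. The labels could not be checked with the targeted gene. The brightest *Dyrk2* probe stood at 0.06 on the E8.5 WT array and at 0.76 on the array labelled *Dyrk2*-/-, and at −0.31 and 0.34 on the E10.5 arrays. It was thus higher under the mutant label at both stages, by 1.62-fold and 1.57-fold, while another probe was 1.02-fold and 1.21-fold higher. The position of the deletions relative to the probes was not determined here. Every direction between genotypes below therefore rests on the labels. The E10.5 array labelled *Dyrk2*-/- also held *Xist*, the RNA of the inactive X chromosome, at −0.37, while it was not detected on the other 3 arrays. The brightest probes of the Y-linked *Ddx3y*, *Eif2s3y*, *Kdm5d* and *Uty* showed the reverse, being detected on those 3 arrays and missing here. Sex can thus not be told apart from genotype at E10.5, nor from stage on the arrays labelled *Dyrk2*-/-.

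At E8.5 all 10 members were detected on both arrays, and *Mesp1* and *Mesp2*, the transcription factors of the newly segmenting mesoderm, were lower on the array labelled *Dyrk2*-/-. *Mesp1* had a value of −1.79 on the WT array and of −3.14 on the array labelled *Dyrk2*-/-, a 2.54-fold lower signal (log2 difference −1.35, scanner error 0.24). *Mesp2* had values of −2.83 and −4.33, a 2.83-fold lower signal (−1.50, scanner error 0.34). *Ripply2*, which encodes a repressor that ends *Mesp2* expression, went the other way. It had values of −0.22 and 0.42, a 1.56-fold higher signal (0.64, scanner error 0.20). A gene was called where it differed 1.5-fold or more, the threshold of the study. By this threshold 2 of 10 members were lower, against 6.5% of all 20709 genes measured, and 1 of 10 was higher, against 5.14%. Of these genes, 1.59% had a lower log2 difference than *Mesp1* and 1.32% a lower one than *Mesp2*, while 4.27% had a higher one than *Ripply2*. *Mesp1* and *Mesp2* were also dim, with processed intensities of 112.8 and 37.1 for *Mesp1* and of 54.7 and 16.2 for *Mesp2*, and each is on the array with 1 probe.

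The other 7 members differed by less than 1.5-fold at E8.5. *Hes7* stood at 1.83 and 1.62, a difference of −0.21 that was about the size of its scanner error (0.20), and −0.75 with spike-in scaling, where 47.6% of all genes were called lower and so was *Hes7*. *Tcf15* (paraxis), needed for somites to become epithelial, stood at 2.04 and 2.47, a difference of 0.43. *Meox1*, a homeobox gene of the somites, stood at 2.90 and 3.25, a difference of 0.36. Both were higher on the array labelled *Dyrk2*-/- by more than their scanner error of 0.20. *Lfng* (0.28), which modifies Notch by adding sugar, and *Nrarp* (0.27), a Notch target that dampens Notch signaling, lay just above a scanner error of 0.21. *Dll3* (0.10), a Notch ligand-like protein that inhibits signaling in the same cell, and *Tbx18* (0.02), a T-box gene of the anterior part of each somite, lay within theirs. In all, 7 members were higher and 3 lower, with a median log2 difference of 0.18, against −0.02 over all genes. This direction rested on the scaling between arrays. Scaled to the spike-in control RNA, the median of all genes at E8.5 was −0.57, 1 member was higher and 9 were lower, and the median of the members was −0.36. *Mesp1* and *Mesp2* were lower under every setting tried that kept them. Under normexp background correction, which shrinks the differences of dim probes and was followed by quantile normalization, *Mesp1* fell to −0.77 and *Mesp2* to −0.56. The value of *Mesp2* is then under 1.5-fold. The difference of *Ripply2* was 0.09 under the spike-in scaling and 0.38 without scaling.

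**Figure D1:**
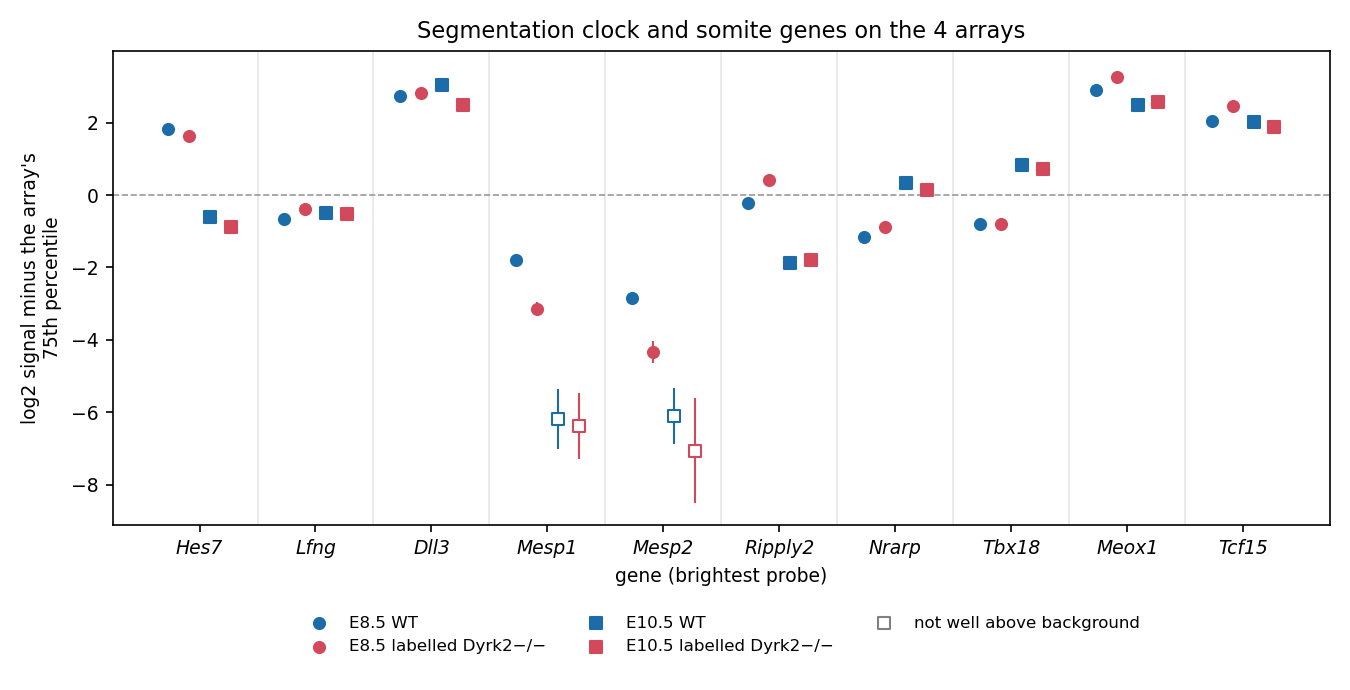
Level of each member on the 4 arrays. The vertical axis gives log2 signal minus the 75th percentile of the array at the brightest probe of each gene, circles are E8.5 and squares E10.5, blue is WT and red the arrays labelled *Dyrk2*-/-, bars are the scanner error, and open symbols were not detected. *Mesp1* and *Mesp2* were separated by genotype at E8.5 and not detected at E10.5, and *Hes7* stood at 1.83 and 1.62 at E8.5 and at −0.62 and −0.89 at E10.5.

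At E10.5 no member differed 1.5-fold between genotypes. *Mesp1* and *Mesp2* were detected on neither array and were not compared, so that 8 members remained. Of these 8, 0 were 1.5-fold or more higher, against 3.5% of 21209 genes, and 0 were lower, against 4.22%. *Dll3* came closest, with values of 3.04 on the WT array and 2.50 on the array labelled *Dyrk2*-/-, a 1.45-fold lower signal (−0.54, scanner error 0.20). *Hes7* stood at −0.62 and −0.89, a difference of −0.27, and *Nrarp* at 0.33 and 0.14, a difference of −0.19. The first exceeded its scanner error of 0.21 and the second lay within its own of 0.20. *Tcf15* (−0.15), *Tbx18* (−0.11), *Lfng* (−0.02), *Meox1* (0.09) and *Ripply2* (0.10) all differed by less than their scanner errors. With 2 members higher and 6 lower the median was −0.13, against 0.0 over all genes, and under the spike-in scaling, which moved the median of all genes to 0.16, 5 were higher and 3 lower. *Lfng* has another, dimmer probe, with values of −4.18 and −3.82 on the E8.5 arrays, followed by −3.50 and −3.86 on the E10.5 arrays. Its differences of 0.36 and −0.36 were larger than those of the brightest probe, and were called at neither stage.

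**Figure D2:**
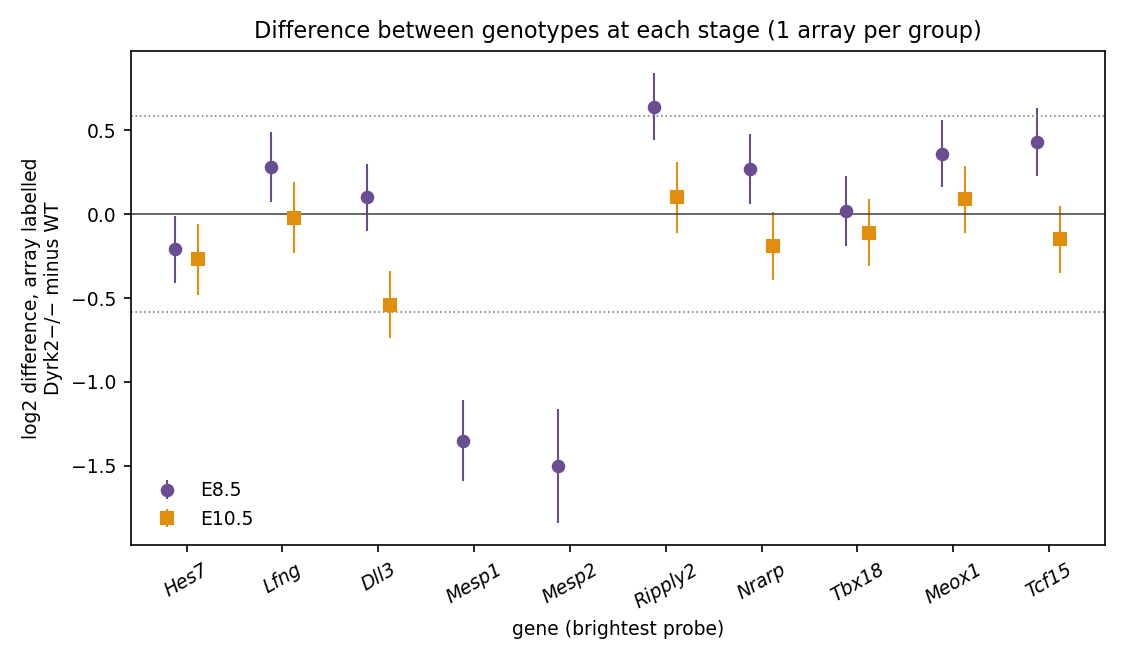
Difference between genotypes for each member at each stage. The vertical axis is the log2 difference between the array labelled *Dyrk2*-/- and the WT array, bars are the scanner error of the difference, and dotted lines mark a 1.5-fold difference. At E8.5 *Mesp1* (−1.35), *Mesp2* (−1.50) and *Ripply2* (0.64) lie beyond the lines, the last not with spike-in scaling or without scaling and the last 2 not under normexp, and at E10.5 no member does.

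Between the stages several members moved more than between genotypes, in comparisons that use the same 4 arrays. *Hes7* was 5.46-fold lower at E10.5 than at E8.5 in WT, from 1.83 to −0.62, and 5.69-fold lower under the mutant label, from 1.62 to −0.89. *Ripply2* was 3.18-fold lower in WT, from −0.22 to −1.89, and lower by a log2 difference of −2.20 under the mutant label, from 0.42 to −1.78. Both genes thus fell on both pairs of arrays. For *Mesp1* and *Mesp2*, which were not detected at E10.5, only a bound can be given, and it is computed against the dimmest detected probe of that E10.5 array. *Mesp1* was at least 7.61-fold lower at E10.5 in WT and at least 3.10-fold lower under the mutant label, and *Mesp2* at least 3.69-fold and at least 1.35-fold. In the other direction, *Tbx18* was 3.13-fold higher at E10.5 in WT, from −0.81 to 0.84, and 2.85-fold higher under the mutant label, from −0.79 to 0.72. *Nrarp* was 2.78-fold higher in WT, from −1.15 to 0.33, and 2.02-fold higher under the mutant label, from −0.87 to 0.14.

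The remaining members moved less. *Dll3* stayed between 2.50 and 3.04 over the 4 arrays, and *Lfng* between −0.65 and −0.38 at its brightest probe. Its dimmer probe was 1.60-fold higher at E10.5 in WT and 1.03-fold lower on the arrays labelled *Dyrk2*-/-. *Meox1* was 1.33-fold lower in WT, from 2.90 to 2.48, and 1.60-fold lower on the arrays labelled *Dyrk2*-/-, from 3.25 to 2.57. *Tcf15* was 1.01-fold lower in WT and 1.51-fold lower on the arrays labelled *Dyrk2*-/-. Counted by the 1.5-fold threshold without the bounds, 4 of 10 members were lower with stage in WT, against 17.5% of 21643 genes, and 2 were higher, against 18.8%. On the arrays labelled *Dyrk2*-/-, 6 of 10 were lower, against 13.9% of 21266 genes, and 2 were higher, against 17.6%. With its bound of 1.35-fold *Mesp2* would not count among the 6. *Mesp1* and *Mesp2*, counted as lower on both pairs of arrays, were detected only at E8.5, so that their direction follows from the filter. The calls of *Meox1* and *Tcf15* on these arrays were lost under quantile normalization, where their differences were −0.54 and −0.49. By quantiles, with spike-in scaling and without scaling the count lower there was 4, against 13.8%, 4.61% and 7.29% of all genes. Under normexp it was 3, against 6.76%. With spike-in scaling the difference of *Tcf15* also turned its sign.

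Across all 4 arrays, limma was fitted to the probes detected on 2 or more with genotype and embryonic day as additive terms, which leaves 1 residual degree of freedom. Limma thus takes its residual from how the genotype difference changes between stages, and its p-values do not measure the spread between embryos. For genotype over both stages it called 0 of 10 members at an adjusted p under 0.05, against 0.0186% of 32289 probes. *Mesp2* had the smallest adjusted p of the members (0.976, log2 difference −1.23, SE 0.49) and was the only member with an unadjusted p under 0.05 (0.0336). It was not detected at E10.5, so that its genotype difference there lies between undetected values. Over all 32289 probes 1592 had an unadjusted p under 0.05 for genotype. For stage over both genotypes limma called 7 of 10 members, against 35.3% of probes. Among the 7 are *Mesp1* and *Mesp2*, which entered the fit only through the E8.5 arrays, so that their calls follow from the filter and their differences are bounds. With probes detected on all 4 arrays, 5 of 8 members were called. In the fit to 32289 probes, *Hes7* (log2 difference −2.48, adjusted p = 2.54e-06), *Ripply2* (−1.94, adjusted p = 5.06e-05) and *Meox1* (−0.55, adjusted p = 0.00963) were lower at E10.5. *Tbx18* (1.58, adjusted p = 4.5e-05) and *Nrarp* (1.25, adjusted p = 0.000443) were higher at E10.5. *Tcf15* (−0.30, adjusted p = 0.162), *Dll3* (−0.02, adjusted p = 0.949) and *Lfng* (0.00, adjusted p = 0.985) did not pass.

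The genes around the members were followed in 5 lists of the same pathways, also chosen with earlier results of these data known. Of these lists 66 genes entered limma's fit. It called 0 of them for genotype, while 11 had an unadjusted p under 0.05, beside the 1592 of 32289 probes. Of the 11, 7 were among the 14 genes of the presomitic mesoderm and its progenitors, and 2 of these, *Nkx1-2* and *Cdx4* (named after its values were seen), were not detected at E10.5. The p of *Cdx4* comes from undetected values, since its difference at E8.5 was −0.05. In that list, 3 of 14 genes measured at E8.5 were called lower under the mutant label, against 6.5% of all genes, and 0 higher, against 5.14%, with a median of −0.32. The count lower was 11 with spike-in scaling (47.6% of all genes), 7 without scaling (15.3%) and 1 under normexp (1.61%). *Cdx1*, a homeobox gene of posterior patterning, stood at 4.67 and 3.54, 2.19-fold lower, but at −1.53 and −0.96 at E10.5, 1.49-fold higher. *Nkx1-2* and *Evx1*, of the tail bud, were each 1.55-fold lower, although the call of *Evx1* was lost under quantile normalization. At E10.5, 5 of 11 were called lower, against 4.22% of all genes, and 0 higher, against 3.5%, with a median of −0.25, and under the spike-in scaling 4 were called lower, against 2.59%, and 1 higher, against 5.84%. Under normexp 3 were called lower, against 0.726%, with a median of −0.13. *Tbx6*, which specifies presomitic mesoderm and activates *Mesp2*, stood at −0.48 and −2.14, 3.16-fold lower, and *T* (Brachyury) at −2.25 and −3.74, 2.81-fold lower. *Fgf4* (1.80-fold), *Evx1* (1.77-fold) and *Cdx2* (1.64-fold) were the others. Under normexp *T* fell to −0.62, and *Fgf4* (−0.40) and *Cdx2* (−0.43) lost their calls. At E8.5, where *Mesp1* and *Mesp2* were lower, *Tbx6* stood at 2.89 and 2.95 and *T* at 2.0 and 1.64, differences of 0.06 and −0.35. All 14 genes of the list were called lower with stage in WT, against 17.5% of all genes. Limma called all 14 lower with stage over both genotypes, while it called 35.3% of probes in either direction. However, 3 of the 14 were not detected on either E10.5 array and entered both counts only through E8.5. *Tbx6* was 10.3-fold lower with stage in WT and 34.1-fold lower on the arrays labelled *Dyrk2*-/-, and *T* 18.9-fold and 41.7-fold.

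Among 14 further genes of the Notch pathway, 1 was called lower at E8.5, against 6.5% of all genes, or 7 with spike-in scaling, against 47.6%. At E10.5 no gene of the list was called in either direction, against 3.5% higher and 4.22% lower over all genes. The gene called at E8.5 was *Notch1*, a receptor, with −1.73 and −2.50 at its brightest probe (1.71-fold lower), while another probe of *Notch1* was 1.73-fold higher. Its call was lost under normexp (−0.48), where 0 genes of the list were called lower, against 1.61% of all genes, and 1 higher, against 1.14%. Among 11 genes of the Wnt and FGF arms of the clock, 2 were called lower at E8.5, against 6.5% of all genes, and 0 at E10.5, against 4.22%. At E8.5 the count was 7 with spike-in scaling (47.6% of all genes), 4 without scaling (15.3%) and 1 under normexp (1.61%). The 2 genes were *Axin2*, a cycling Wnt target, at 1.04 and 0.27 (1.71-fold lower at its brightest probe, 1.08-fold higher at another), and *Dkk1*, a secreted Wnt inhibitor, at 0.04 and −0.58 (1.54-fold lower). At E10.5 these genes differed by 1.06-fold and 1.07-fold. Genes of somite borders and polarity were called in both directions at E8.5, 3 of 16 higher, against 5.14% of all genes, and 1 lower, against 6.5%. At E10.5, 0 of 15 were called, against 3.5% higher and 4.22% lower. *Cer1*, a secreted inhibitor made in the forming somite, stood at −2.73 and −1.51 at E8.5 (2.34-fold higher), *Meox2* at −1.18 and −0.15 (2.04-fold higher) and *Pcdh8* (paraxial protocadherin) at 0.31 and 1.0 (1.61-fold higher at both its probes). *Ripply1* was 1.65-fold lower, from −3.56 to −4.28, a call that was lost under normexp (−0.24). The call of *Pcdh8* and *Meox2* was lost under the spike-in scaling, where their differences were 0.14 and 0.48. With that scaling 1 gene of the list was called higher, against 1.4% of all genes, and 4 lower, against 47.6%. Without scaling 2 were called higher, against 2.45%, and 2 lower, against 15.3%.

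Genes of the somite derivatives, which make muscle, cartilage and tendon, were called mostly higher at E8.5 and only lower at E10.5, a pattern that depended on the processing. At E8.5, 3 of 8 genes measured were higher, against 5.14% of all genes, and 1 was lower, against 6.5%. At E10.5, 0 of 12 were higher, against 3.5%, and 4 were lower, against 4.22%. *Pax1*, of the sclerotome, stood at −1.64 and −1.03 at E8.5 (1.53-fold higher at its brightest probe, 1.40-fold lower at another) and at 1.33 and 0.67 at E10.5 (1.57-fold lower). *Lbx1*, of migrating muscle precursors, stood at −3.68 and −3.02 at E8.5 (1.59-fold higher) and at −0.01 and −0.68 at E10.5 (1.59-fold lower). *Dmrt2*, of the dermomyotome, was 1.63-fold higher at E8.5. *Sox9*, a regulator of cartilage, was 1.65-fold lower there at its brightest probe and 1.11-fold higher at another. At E10.5 *Myod1*, of muscle, was 2.51-fold lower, from −3.42 to −4.75, and *Scx*, of tendon, 1.54-fold lower. With spike-in scaling, without scaling and under normexp no gene was called higher at the earlier stage, and by quantiles *Pax1* lost its call there (0.57). With spike-in scaling 3 were called lower at the earlier stage, against 47.6% of all genes, and 1 at the later, against 2.59%. Under normexp 2 were called lower at the later stage, against 0.726%, and *Myod1*, whose lower value lies close to the dimmest detected value of its array (−4.77), lost its call (−0.35). That the differences at the stages differ from each other was not tested for any gene.

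**Figure D3:**
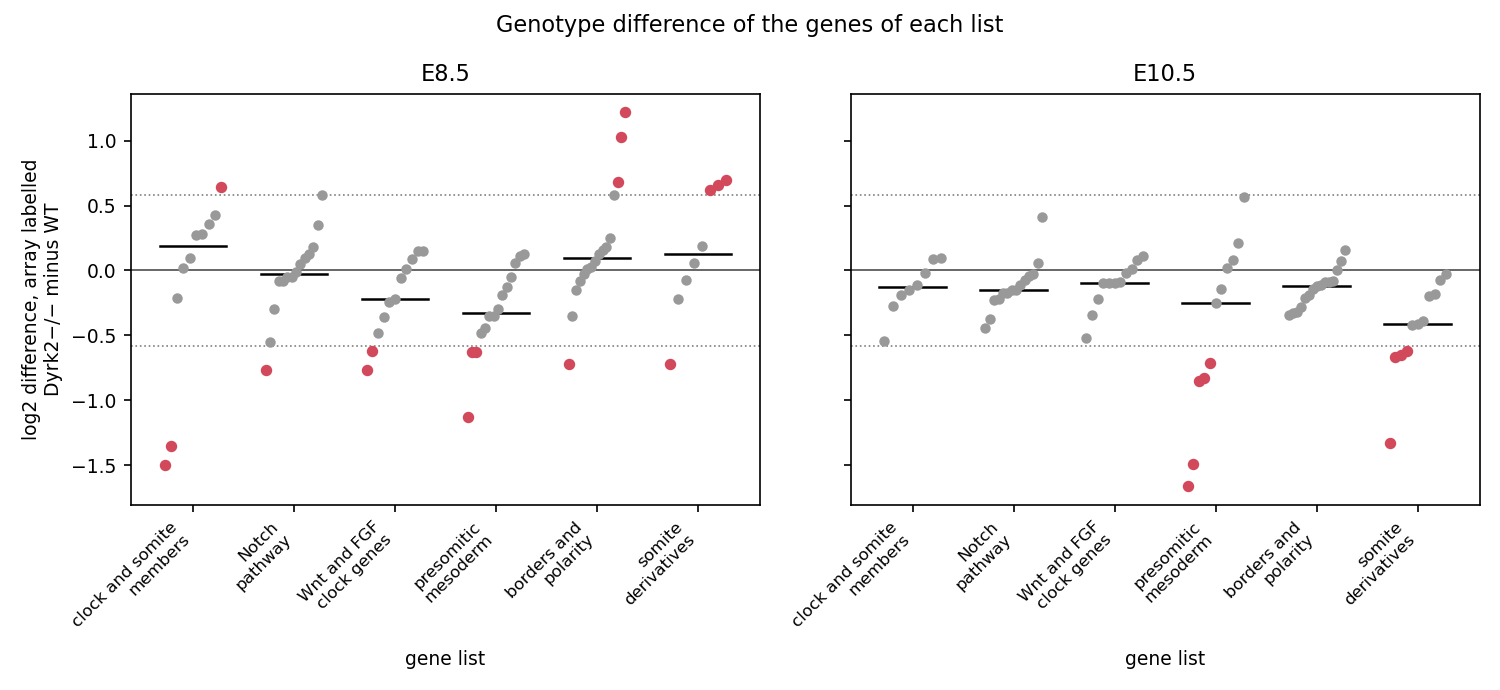
Genotype difference of every gene of the members and of the 5 lists detected on both arrays of a stage. The vertical axis is the log2 difference between the array labelled *Dyrk2*-/- and the WT array, red points differ 1.5-fold or more (dotted lines), and black bars are medians. The red points of the presomitic mesoderm lie below 0 at both stages, and those of the somite derivatives lie on both sides at E8.5 and below 0 at E10.5.

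The exact age of the embryos was not tested for its part in the results above, nor were other cell types, which also differed between the arrays. Their counts of genes called stand beside the shares over all genes, which were 5.14% higher and 6.5% lower for E8.5, then 3.5% higher and 4.22% lower for E10.5. Of 12 genes of primitive erythroid cells, 12 were higher on the array labelled *Dyrk2*-/- at each stage, with a median of 4.17 at the earlier stage (3.92 with bounds) and of 1.11 at the later, and 11 of 12 were higher at the earlier stage with spike-in scaling and at the later without scaling or by quantiles. Of the 12, 11 were called higher at the earlier stage and 8 at the later. Their summed signal, in units of the 75th percentile, was 16.2 on the WT and 327 on the array labelled *Dyrk2*-/- at the earlier stage, then 1100 and 1300 at the later. All 9 genes of yolk sac endoderm were lower on the E8.5 array labelled *Dyrk2*-/-, 7 of them 1.5-fold or more. That count was 3 under normexp (1.61% of all genes), 6 by quantiles (6.71%), and 9 with spike-in scaling (47.6%) or without scaling (15.3%). At E10.5, 7 of the 8 compared were lower and 0 were called. The sums of the 9 genes ran 52.6, 33.9, 21.1 and 17.5 over WT E8.5, labelled *Dyrk2*-/- E8.5, WT E10.5 and labelled *Dyrk2*-/- E10.5. *Apoa4* was not detected on either E10.5 array, nor *Amn* on that labelled *Dyrk2*-/-. In the same order, 8 heart genes summed to 277, 279, 150 and 154, with 0 called between genotypes at either stage. The sums of 8 neural genes were 20, 20.5, 55.2 and 44.3, with 2 of the 7 measured called higher at E8.5. *Neurog1* was not detected at E8.5. The sums of 6 genes of limb and epicardium were 11.8, 17.0, 26.2 and 24.8, with 1 of 6 called higher at E8.5. The sums of 4 trophoblast and decidua genes were 0.953, 1.15, 0.358 and 0.326, and 2 of the 3 measured at E8.5 were called higher there, *Prl8a2* (2.72-fold) and *Prl3d1* (at least 6.62-fold). *Tpbpa* was detected on no array, *Prl3d1* only on the E8.5 array labelled *Dyrk2*-/-, and *Prl8a2* only at E8.5.

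*Mesp1* and *Mesp2* are neighbors on chromosome 7. Their probes lie 20.6 kb apart in the mm9 annotation of the array, at 86937140 to 86937199 on the minus strand and at 86957849 to 86957908 on the plus strand, and no other protein-coding gene of the RefSeq table starts between them. The 250 bases before the start of each gene were searched on both strands for TGGGAA (the core of the site of RBPJ, the DNA-binding partner of Notch), AGGTGT (bound by T-box factors such as Tbx6) and CACGNG (bound by Hes factors). Of all 32851 promoters of the RefSeq table, 21.6%, 11.8% and 23.5% held them. Of the 8 members in the table, all but *Meox1* and *Tcf15*, 3 held TGGGAA, 1 held AGGTGT and 5 held CACGNG. Shown are the promoters of *Hes7* and of the 3 members called between genotypes at E8.5. All of these genes were lower at E10.5 in WT. The matches are in capitals, and in the promoters shown no matches overlap. These promoters come from RefSeq on GRCm38.p6 and read 5′ to 3′ toward the gene. A match is a description of the letters and not of binding.
*Mesp1* (chr7:79793591-79793840, minus strand): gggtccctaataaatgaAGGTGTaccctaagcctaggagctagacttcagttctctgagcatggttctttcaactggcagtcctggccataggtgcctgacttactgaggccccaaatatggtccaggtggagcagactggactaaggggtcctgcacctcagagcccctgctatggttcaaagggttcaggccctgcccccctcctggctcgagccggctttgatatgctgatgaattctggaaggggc
*Mesp2* (chr7:79810477-79810726, plus strand): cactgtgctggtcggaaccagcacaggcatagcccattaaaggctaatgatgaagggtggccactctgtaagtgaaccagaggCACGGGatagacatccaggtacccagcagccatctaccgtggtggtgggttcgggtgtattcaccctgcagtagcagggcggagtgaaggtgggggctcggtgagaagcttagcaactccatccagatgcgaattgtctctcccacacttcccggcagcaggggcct
*Ripply2* (chr9:87015287-87015536, plus strand): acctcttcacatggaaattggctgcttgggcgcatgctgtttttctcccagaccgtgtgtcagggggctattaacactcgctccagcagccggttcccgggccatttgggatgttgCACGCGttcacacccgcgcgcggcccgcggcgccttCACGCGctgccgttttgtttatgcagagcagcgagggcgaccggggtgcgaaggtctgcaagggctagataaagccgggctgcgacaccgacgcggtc
*Hes7* (chr11:69120203-69120452, plus strand): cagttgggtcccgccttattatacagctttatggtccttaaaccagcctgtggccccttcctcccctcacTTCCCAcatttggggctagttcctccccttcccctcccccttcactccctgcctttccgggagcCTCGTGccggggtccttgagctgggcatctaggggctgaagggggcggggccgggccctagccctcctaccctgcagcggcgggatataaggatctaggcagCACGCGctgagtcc
The capitals mark AGGTGT in *Mesp1*, CACGNG in *Mesp2* and in *Ripply2*, at 1 and 2 places, and in *Hes7* TTCCCA, the reverse strand of TGGGAA, at 1 place and CACGNG, on either strand, at 2. The *Mesp* genes, which were lower together at E8.5, share none of the motifs within these windows.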

How the data were processed

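For every array the authors deposited scanner output (Agilent Feature Extraction, version 10.7.1.1 in the file headers and 9.5.1.1 in the submitters' processing notes), in which the processed intensity of a spot is linear, background-subtracted and without scaling across arrays. A value table of linear intensities is part of the series as well, and in log2 it lay a median of 0.006 from the scanner values after quantile normalization. Outlier spots were dropped, the log2 intensities of the remaining spots of a probe were averaged, and the 75th percentile was taken off array by array. A gene is its brightest probe over the 4 arrays, named as in the scanner files. Genes were compared if either array of the pair detected them. Of 56605 probes, 31370 and 30226 (E8.5, WT and labelled *Dyrk2*-/-) and 31818 and 31943 (E10.5) were well above background, and no spot was saturated. Where 1 array was not well above background, the fold is a bound, computed against the higher of the probe's own value and the lowest value above background on that array (−4.82, −4.53, −4.72 and −4.77).

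Limma 3.58.1 (lmFit, eBayes with an intensity trend, R 4.3.3) was fitted to the 32289 probes that 2 or more arrays detected, with Benjamini-Hochberg adjustment over all of them. Python 3.11.15, pandas 2.3.3 and matplotlib 3.10.9 were used for the rest. The genes named are the members, the genes of the 5 pathway lists that differed 1.5-fold between genotypes (at most 6 per list and stage), *Dyrk2* and the genes of the sex chromosomes, and markers of other cell types were named after their values were seen. The members and lists were chosen with earlier results of these data known. Alternatives were quantile normalization, spike-in scaling (7 of 10 control probes), no scaling, normexp background correction with an offset of 50, the value table, the mean over probes, other filters, a 2-fold threshold and limma without the trend. The normexp values were also quantile normalized, so that this setting changes background correction and scaling together.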

Additional observations from a re-analysis of the deposited data

Results flagged for a closer look

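For 4 members the difference between genotypes had opposite signs at the 2 stages and changed by more than its scanner error of 0.29 (log2). With 1 array per group this change was not tested. In each of the 4, a difference at 1 of the stages lay within its own scanner error. This was E8.5 for *Dll3* (error 0.20) and E10.5 for *Tcf15* (0.20), *Nrarp* (0.20) and *Lfng* (0.21). *Dll3* went from 0.10 at E8.5 to −0.54 at E10.5, a change of −0.64. *Tcf15* went from 0.43 to −0.15, a change of −0.58, *Nrarp* from 0.27 to −0.19, a change of −0.46, and *Lfng* from 0.28 to −0.02, a change of −0.30. All 4 were higher on the array labelled *Dyrk2*-/- at E8.5 and lower at E10.5 under the 75th percentile scaling. Under the spike-in scaling their E8.5 differences were −0.45 (*Dll3*), −0.11 (*Tcf15*), −0.27 (*Nrarp*) and −0.27 (*Lfng*), so that the signs were opposite in *Tcf15* and *Lfng* the other way round, with 0.01 and 0.14 at E10.5, and the same in *Dll3* (−0.38) and *Nrarp* (−0.03).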

How the results depend on the processing

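At E8.5, the count of members 1.5-fold higher fell from 1 to 0 under the spike-in scaling, without scaling, under normexp and at a 2-fold threshold, and the count lower fell from 2 to 1 under normexp and to 0 with a filter on all 4 arrays, which leaves out *Mesp1* and *Mesp2* by construction. Normexp adds an offset of 50 to signals that were as dim as 16.2, and took *Mesp2* to −0.56 and *Mesp1* to −0.77. The members' E8.5 median was −0.36 with spike-in scaling, which called 3 lower (47.6% of all genes), and −0.07 without scaling. At E10.5 the count lower was 1 without scaling (*Dll3*, −0.67) and 1 with no filter. With stage in WT, the filter on all 4 arrays left 2 lower and a median of 0.07. On the arrays labelled *Dyrk2*-/-, the median with stage was −0.64, and it was 0.0 under the spike-in scaling and −0.33 without scaling, *Tcf15* turned to 0.05 under the spike-in scaling, and normexp left 3 lower. The cause was not tested except where the construction shows it.

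Of the values of single members under the alternatives, 281 kept their side of the 1.5-fold threshold, 14 lost and 2 gained the call and 1 turned. All 78 values with stage in WT were among the 281. Limma, run under the alternatives of scaling, background, source, filter and trend, called 0 members for genotype in each, with smallest adjusted p-values from 0.18 to 1.0, and between 5 and 8 for stage. Over all probes it called 6 for genotype, 729 without scaling and 0 without the trend, and 11397 for stage, 2633 under the spike-in scaling and 6437 without the trend.

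The spike-in scaling gave all genes medians of −0.57 at E8.5, 0.16 at E10.5, −0.15 with stage in WT and 0.59 with stage on the arrays labelled *Dyrk2*-/-, and no scaling left medians of −0.28, −0.13, 0.10 and 0.25. Of the genes called, 55.9% were lower at E8.5, which became 97.1% with spike-in scaling and 86.2% without scaling. At E10.5 these shares were 54.6%, 30.8% and 71.1%, with stage in WT 48.2%, 54.7% and 33.1%, and with stage on the arrays labelled *Dyrk2*-/- 44.2%, 8.44% and 20.5%. Leaving out an array was not possible with 1 per group. No paired analysis was possible because no label pairs the samples and each group has 1 array, although the additive fit compares genotypes within each stage.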
